A study of Homo sapiens with 4 samples.

Results

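The NRF2-driven redox and pentose phosphate genes considered here are 9 listed symbols: PRDX1, PGD, TXN, TXNRD1, GCLM, GCLC, NQO1, TALDO1 and HMOX1. They were taken from the deposited log-ratio table through probes that the platform annotation gives exactly 1 symbol. By that rule 5 of the 9 were measured, on 7 of 26629 probes and among 12483 genes. PRDX1, PGD, TXN and GCLM had 1 cDNA clone each and GCLC had 3. TXNRD1 was annotated on 4 probes that also carry another symbol, so it was not analysed here, and neither were NQO1, TALDO1 and HMOX1. The list was drawn up with earlier results of these data known.

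Cultures of A549, an adenocarcinoma line of human lung, were compared: some transfected with the microRNA gene let-7a-3, the others the parental line. All grew in DMEM with 10% FCS and are labelled non-treated. On each of 4 two-colour cDNA arrays a single let-7a-3 culture was set against a single parental one, arrays 1 and 3 in 1 dye orientation and arrays 2 and 4 in the other. The parental line is no transfection control, and whether 1 or several transfected lines were used is not stated. Nothing beyond the series text, which speaks of biological replicates, says that the cultures were separate. If they were not, the p-values measure technical spread alone. Neither the base of the logarithm nor which channel forms the numerator is stated, and a positive value is therefore not known to mean more RNA in the let-7a-3 cultures. No fold is given. If the sign were turned, every positive value below would be negative. A log ratio holds no level, so the identity of the cells could not be checked against markers. It also cannot tell fewer expressing cells from less RNA per cell.

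NRF2, encoded by NFE2L2, is a transcription factor that KEAP1 holds for degradation until oxidants or electrophiles release it. With a small MAF partner it then binds antioxidant response elements and switches on genes for glutathione synthesis, the thioredoxin system, quinone reduction and NADPH supply. A549 cells carry a KEAP1 mutation and are known for constantly active NRF2. The pentose phosphate pathway supplies the NADPH with which thioredoxin reductase and glutathione reductase recharge their substrates.

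The sequences below show the overexpressed microRNA and the stretch before the transcription start of 2 listed genes that hold the NRF2 motif, of which 1 passed the test described later. They are from RefSeq on GRCh38.p14, where 7 of the 9 listed genes had a promoter entry. PRDX1 and HMOX1 had none and were not searched for the motif. The first is mature let-7a from the let-7a-3 gene (chr22:46112752-46112773, plus strand), with its seed, bases 2 to 8, in capitals. The other two are the 250 bases before the start of PGD (chr1:10398814-10399063, plus strand) and GCLM (chr1:93909431-93909680, minus strand), with matches to the motif in capitals.
hsa-let-7a-5p: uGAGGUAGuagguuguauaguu
PGD: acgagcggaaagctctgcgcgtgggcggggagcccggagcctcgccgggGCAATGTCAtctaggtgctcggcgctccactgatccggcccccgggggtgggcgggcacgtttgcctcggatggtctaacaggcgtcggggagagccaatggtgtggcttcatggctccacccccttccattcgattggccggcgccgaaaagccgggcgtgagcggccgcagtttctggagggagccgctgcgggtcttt
GCLM: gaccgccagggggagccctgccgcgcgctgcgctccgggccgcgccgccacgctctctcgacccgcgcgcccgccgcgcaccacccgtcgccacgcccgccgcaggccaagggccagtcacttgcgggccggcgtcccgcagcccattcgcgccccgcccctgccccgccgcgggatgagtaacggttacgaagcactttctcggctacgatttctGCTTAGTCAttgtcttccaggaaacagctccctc

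The motif was the core of the antioxidant response element, TGACNNNGC, searched on both strands. Its first letters are shared with the AP-1 site, which was not searched. PGD held 1 match, on the strand opposite to the gene, whose first printed letter lies 201 bases before the start. GCLM held 1 match, also on the opposite strand, 34 bases before the start. TXNRD1 held 1 match at each of its 2 annotated starts, and TXN, GCLC, NQO1 and TALDO1 held none in this window. Over all 35116 RefSeq promoters, 10.9% held at least 1 match in the same 250 bases. A match is a description of letters and no evidence of binding.

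**Figure D1:**
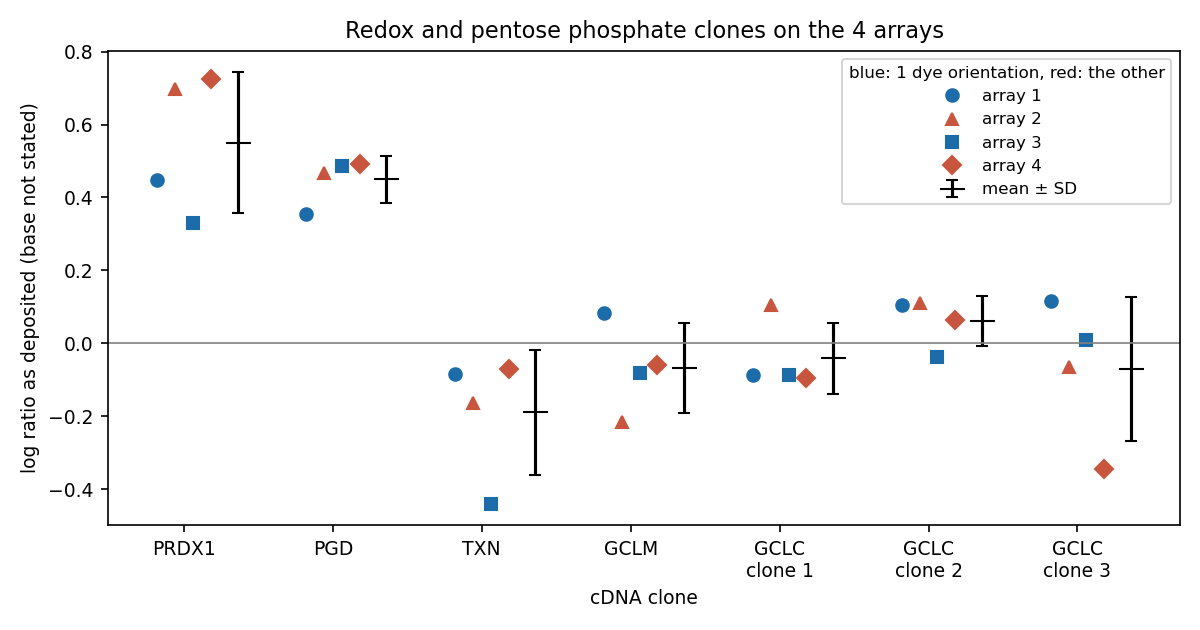
Log ratios as deposited (vertical axis, base not stated) of the 7 cDNA clones of the 5 measured genes (horizontal axis) on the 4 arrays, with blue for arrays 1 and 3 and red for arrays 2 and 4. Black bars are the mean ± SD over 4 arrays. The lowest PRDX1 and PGD points are at 0.330 and 0.355, all TXN points lie below 0, and the other clones scatter around 0.

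For each gene 2 components were fitted: one with the same sign on all arrays, called the shared component, which is the mean log ratio, and one that changes sign with the dye orientation, called the alternating component. If the authors had turned all arrays to 1 orientation, the shared component would be the difference between let-7a-3 and parental cultures. If they had not, it would be the alternating one. The labels do not settle this, so both are given. Of the 5 measured genes, 2 passed an adjusted p of 0.05 in the shared component (limma, Benjamini-Hochberg over all 12483 genes), PRDX1 and PGD, both with positive log ratios. TXN, GCLM and GCLC did not pass. Among all genes 3.04% passed in this component. By clone, 2 of 7 passed, again PRDX1 and PGD, against 2.07% of all probes. The median of the 5 genes was -0.0172, against 0.00687 for all genes.

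PRDX1 is a peroxiredoxin, an abundant thiol enzyme that reduces hydrogen peroxide and is recharged by thioredoxin. Its clone (IMAGp998B10282) had log ratios of 0.448, 0.698, 0.330 and 0.726 on arrays 1 to 4. All were positive, and both arrays of the second orientation lay above both of the first. The mean was 0.55 ± 0.19 (SD, n = 4; SE of the fit 0.042, 95% interval 0.454 to 0.647), with a limma adjusted p of 0.000342. PRDX1 ranked 37th from the highest of 12483 genes, and 0.497% of genes were at least as large in size.

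PGD, 6-phosphogluconate dehydrogenase, is the NADPH-producing enzyme of the oxidative branch of the pentose phosphate pathway. Its clone (IMAGp998F19237) had log ratios of 0.355, 0.466, 0.485 and 0.493 on arrays 1 to 4. The values lay closer together than those of PRDX1, and the 2 orientations overlapped. The mean was 0.45 ± 0.064 (SD, n = 4; SE 0.042, 95% interval 0.352 to 0.548; limma adjusted p = 0.00104), which ranked 55th from the highest. PRDX1 minus PGD was 0.093, 0.232, -0.155 and 0.233 on the 4 arrays, so their order changed on array 3 and the data do not rank one above the other.

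The calls of PRDX1 and PGD rest on variance shared between genes. Without that moderation, on 2 residual degrees of freedom, their limma adjusted p was 0.291 and 0.311, and 0 of 12483 genes passed, although 1337 had an unadjusted p under 0.05. Each was measured by a single clone, so neither value could be checked against a second one.

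TXN, thioredoxin, is the small dithiol protein that donates electrons to peroxiredoxins. Its clone (IMAGp998I23369) had log ratios of -0.084, -0.163, -0.440 and -0.070 on arrays 1 to 4. All 4 were negative, and array 3 lay well below the rest. The mean of -0.19 ± 0.17 (SD, n = 4; 95% interval -0.329 to -0.049) did not pass over all genes (limma adjusted p = 0.183) and ranked 281st from the lowest of 12483 genes. With an array left out, the shared component is the midpoint of the orientation means, and not the mean of the arrays left. For TXN it was -0.28 without array 1, where array 3 stood alone in its orientation. Without array 3, where array 1 stood alone, it was -0.10.

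The log ratio of PRDX1 thus lay above that of TXN, its electron donor, on every array, by 0.532, 0.861, 0.770 and 0.796 on arrays 1 to 4. That of PGD lay above TXN by 0.439 to 0.925. These differences are given as values. With 4 arrays the smallest p an exact two-sided sign-flip test allows is 0.125, so that test could not reach 0.05, and no other test of them was run.

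GCLC and GCLM are the catalytic and the modifier subunit of glutamate-cysteine ligase, which makes the first and limiting step of glutathione synthesis. GCLM (IMAGp998E20194) had log ratios of 0.084, -0.215, -0.081 and -0.061 on arrays 1 to 4, with a mean of -0.068 ± 0.12 (SD, n = 4). The values lay on both sides of 0 and the limma adjusted p was 0.58, with a 95% interval of -0.18 to 0.043. Its shared component, again as the midpoint of the orientation means, was -0.11 without array 1 and without array 4. It was -0.029 without array 2 and -0.027 without array 3.

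GCLC averaged over its 3 clones had 0.045, 0.050, -0.039 and -0.125, a mean of -0.017 ± 0.083 (SD, n = 4; limma adjusted p = 0.903; 95% interval -0.124 to 0.089). Its clones did not move as one. IMAGp998G15520 had -0.088, 0.106, -0.087 and -0.095 on arrays 1 to 4, IMAGp998G194974 had 0.104, 0.110, -0.036 and 0.065, and IMAGp998O20462 had 0.117, -0.065, 0.0078 and -0.345. Their means were -0.041, 0.061 and -0.071, none past the threshold. The intervals of GCLM and GCLC hold 0 and do not reach the size of PRDX1 or PGD in either direction. The sign of the shared component of GCLC was not stable: it was 0.020 with the median of its clones. As the midpoint of the orientation means, and not the mean of the arrays left, it was 0.027 without array 4 and 0.0036 without array 3.

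In the alternating component, turned here to the sign of arrays 1 and 3, none of the 5 genes and none of the 7 clones passed in limma, against 3.29% of all genes and 4.28% of all probes. At an unadjusted p under 0.05 there was 1 of the 5, PRDX1 (-0.16, SE 0.042, 95% interval -0.258 to -0.065, adjusted p = 0.0722). The mean of PRDX1 was 0.389 on arrays 1 and 3 and 0.712 on arrays 2 and 4. Its alternating component passed after quantile normalization (-0.22, limma adjusted p = 0.0346). Without array 1 it was -0.19, with array 3 alone in its orientation. PGD had -0.030 (adjusted p = 0.7), with orientation means of 0.420 and 0.479. TXN had -0.073 (0.485), GCLM 0.070 (0.395) and GCLC 0.020 (0.819), where the number in brackets is the limma adjusted p. Without array 1, TXN was at -0.16, again with array 3 alone in its orientation. PRDX1 and PGD thus kept a positive sign within each orientation. If the arrays were not turned to 1 orientation, that sign would not describe the difference between the cultures. The difference would then be the alternating values of -0.16 and -0.030, which did not pass.

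**Figure D2:**
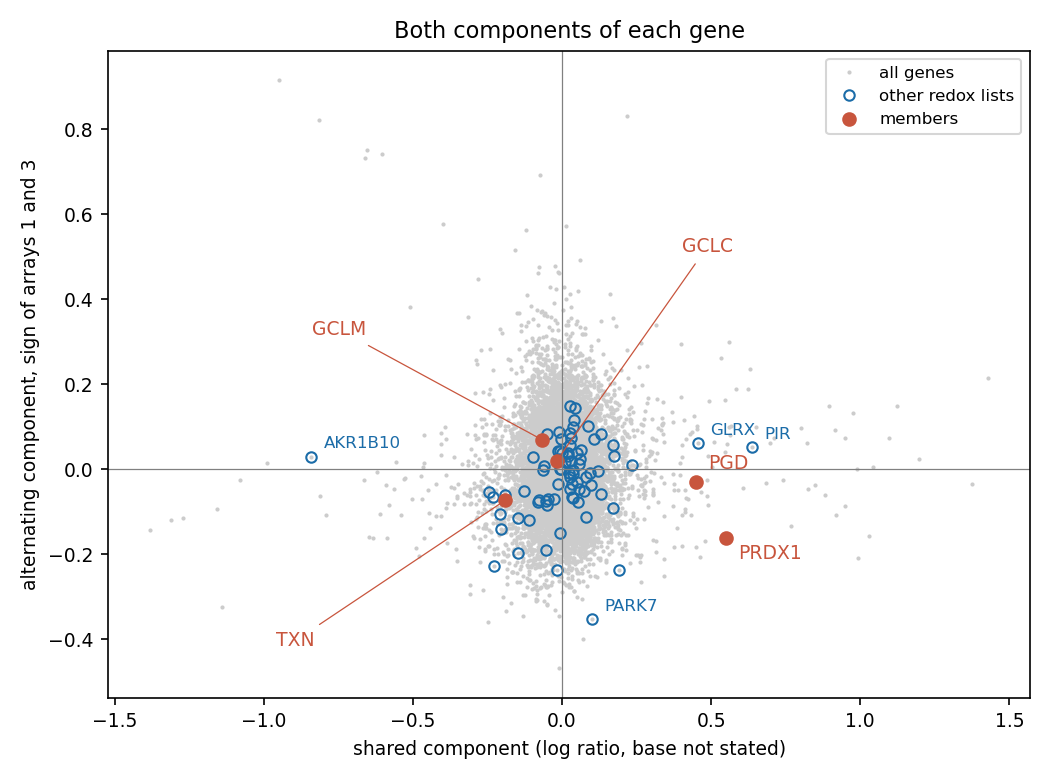
Shared component (horizontal axis) against alternating component with the sign of arrays 1 and 3 (vertical axis), both log ratios of unstated base, for all 12483 genes (grey), 77 other redox genes (blue circles) and the 5 measured listed genes (red). PRDX1 at 0.55 and PGD at 0.45 lie right of the grey mass, and TXN, GCLM and GCLC lie inside it.

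By root mean square difference over the 4 arrays, the genes most like PRDX1 were LDHA, lactate dehydrogenase A (difference 0.104; 0.277, 0.631, 0.233 and 0.707), VDAC2 (0.113) and RHOV (0.113). The values of LDHA, like those of PRDX1, were higher on arrays 2 and 4. Those most like PGD were IPO7 (0.066), PLA2G4A (0.072) and GABARAPL1 (0.073), with mean log ratios of 0.488, 0.421 and 0.489. With 4 arrays such likeness is a description only.

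Around the listed genes, 77 measured genes of 8 further lists of NRF2 control, redox and NADPH metabolism were read from the same fit. In the shared component 3 of them passed with positive and 2 with negative log ratios in limma, which is 6.49% against 3.04% of all genes. For the alternating component 0 passed with positive and 2 with negative values (HAGH and PARK7), which is 2.6% against 3.29% of all genes. Their shared median was 0.0261, against 0.00687 for all genes. Of their 132 clones, 9 passed with positive and 2 with negative values in the shared component, where 2.07% of all probes passed. The alternating component had 2 clones past the threshold with positive and 3 with negative values, where 4.28% of all probes passed. These lists too were chosen with earlier results known, so the shares describe and do not test.

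Among regulators, none of 6 passed. NFE2L2 itself averaged 0.060 over 4 clones (limma adjusted p = 0.555), but its clones disagreed. The clone RZPDp1096B0620D had 0.264, 0.380, 0.585 and 0.730 on arrays 1 to 4 and passed over all probes (mean 0.49, adjusted p = 0.00909). The other 3 clones had means between -0.12 and -0.057 and did not pass. BACH1, a repressor that competes with NRF2 for its elements, was at -0.00047 (adjusted p = 0.997), and MAFG, a small MAF partner, at -0.080 (adjusted p = 0.463). The 2 clones of MAFG were at 0.019 and -0.18, and neither passed over all probes (limma adjusted p = 0.917 and 0.176).

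In the thioredoxin and glutaredoxin list 1 of 10 genes passed. This was GLRX, glutaredoxin, which frees protein thiols from glutathione, with 0.656, 0.445, 0.380 and 0.344 on arrays 1 to 4 (mean 0.46, limma adjusted p = 0.00355). All 4 values were positive. SRXN1, sulfiredoxin, which restores overoxidised peroxiredoxins, did not pass at the gene level (0.18, adjusted p = 0.0731). Of its 2 clones one passed at 0.34 (adjusted p = 0.00934) and the other was at 0.012. PRDX3, the mitochondrial peroxiredoxin and the other member of its family measured here, was at 0.11 (adjusted p = 0.433). TXNIP, an inhibitor of thioredoxin, was at -0.0082 (adjusted p = 0.951).

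None of 20 further glutathione genes passed in the shared component in limma, and 5 had an unadjusted p under 0.05. SLC7A11, the cystine carrier that feeds glutathione synthesis, was at 0.058 (adjusted p = 0.608) and GSS, glutathione synthetase, at 0.13 (adjusted p = 0.221). One of 3 clones of MGST3, a microsomal glutathione transferase, passed at 0.29 (adjusted p = 0.0221), and the other two were at -0.019 and 0.019. In the alternating component HAGH, a glyoxalase that releases glutathione, passed with -0.24 (adjusted p = 0.0349). Its values of -0.235 and -0.271 on arrays 1 and 3 stood against 0.278 and 0.164 on arrays 2 and 4.

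Besides PGD, 8 pentose phosphate genes were measured, and limma called none of them, although 3 had an unadjusted p under 0.05. TKT, transketolase, of the non-oxidative branch was at 0.055 (adjusted p = 0.729) and RPIA, ribose-5-phosphate isomerase, at -0.097 (adjusted p = 0.312). H6PD, the NADPH-producing dehydrogenase of the endoplasmic reticulum, was at 0.037 (adjusted p = 0.765). DERA, deoxyribose-phosphate aldolase, averaged 0.17 over 3 clones (adjusted p = 0.13), with 1 clone past the threshold at 0.39. In the alternating component 1 of the 2 clones of TKTL1, a transketolase-like gene, passed at -0.30 (adjusted p = 0.0207), and the gene mean did not (-0.20, adjusted p = 0.0522). Of 9 further genes of NADPH supply, among them IDH1 (0.039), IDH2 (-0.0026) and MTHFD1 (0.034), none passed in limma and 0 had an unadjusted p under 0.05. These counts are of gene means, which lay between -0.0034 and 0.093. The mean of IDH2 hides 2 clones of opposite sign. RZPDp201F0434D was at -0.18, negative on all 4 arrays, and RZPDp202C018D at 0.17, positive on all 4. Neither passed over all probes.

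**Figure D3:**
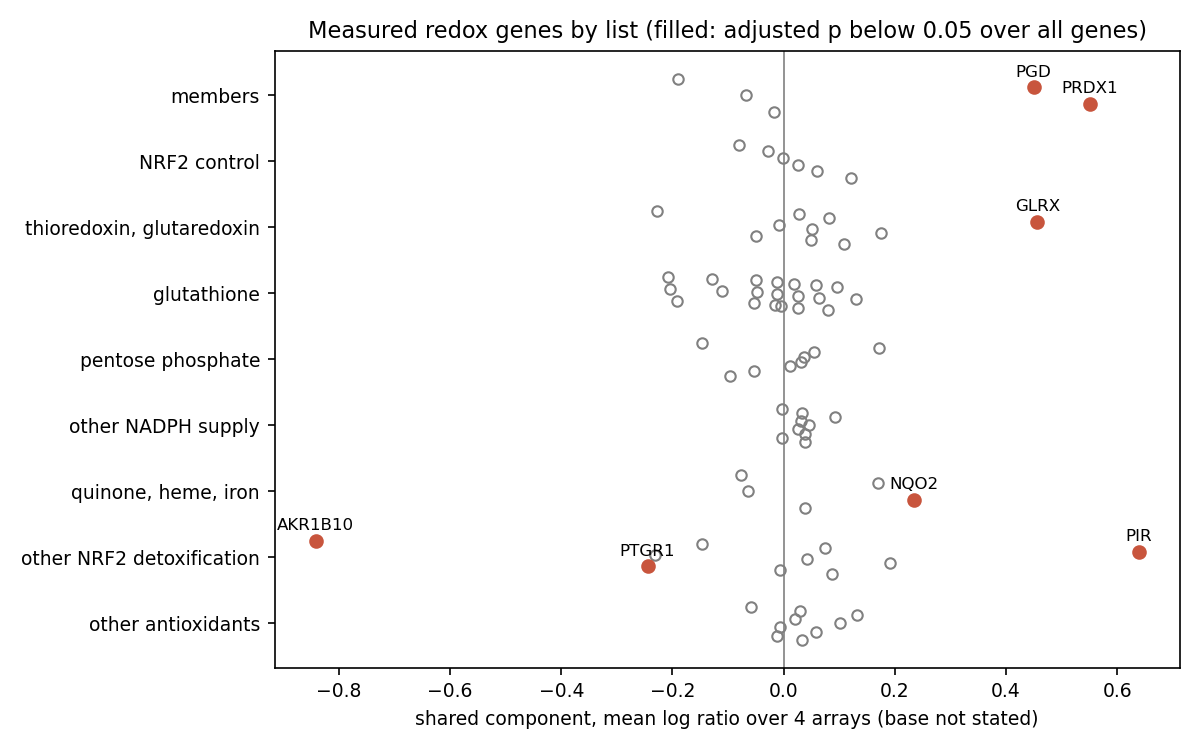
Shared component (horizontal axis, mean log ratio over 4 arrays, base not stated) of each measured gene, with 1 row per list and vertical scatter for legibility only. Filled points passed an adjusted p of 0.05 over all genes. PRDX1, PGD, GLRX, NQO2 and PIR passed on the positive side and AKR1B10 and PTGR1 on the negative side.

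Among quinone, heme and iron genes NQO2, a quinone reductase related to NQO1, passed of 5 measured, with 0.192, 0.173, 0.299 and 0.274 on arrays 1 to 4 (mean 0.23, limma adjusted p = 0.0293 over genes and 0.0578 over probes). HMOX2, the constitutive heme oxygenase, was at -0.064 (adjusted p = 0.597). BLVRB, which reduces biliverdin and flavins, averaged 0.17 over 3 clones (adjusted p = 0.104), of which 1 passed at 0.32 (adjusted p = 0.0378).

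The other detoxifying genes counted as NRF2 targets went both ways: of 10 measured, 1 passed with a positive and 2 with negative log ratios. PIR, pirin, an iron-binding nuclear protein, had 0.715, 0.511, 0.665 and 0.663 on arrays 1 to 4 (mean 0.64, limma adjusted p = 0.000217). AKR1B10, an aldo-keto reductase that reduces reactive aldehydes, had -0.836, -0.874, -0.789 and -0.869 (mean -0.84, adjusted p = 3.14e-05). PIR carried the sign of PRDX1 and PGD on every array, and AKR1B10 the opposite sign on every array. PTGR1, prostaglandin reductase 1, averaged -0.24 over 2 clones (adjusted p = 0.0336), 1 of which passed. AKR1C1, another aldo-keto reductase, was at 0.074 over 4 clones (adjusted p = 0.467), of which 1 passed at 0.31 (adjusted p = 0.0449).

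Of 9 other antioxidant genes limma called none in the shared component, and 2 had an unadjusted p under 0.05. SOD1, the cytosolic superoxide dismutase, was at -0.0069 (adjusted p = 0.968) and CAT, catalase, at -0.013 (adjusted p = 0.925). PON2, a lactonase, averaged 0.13 over 5 clones (adjusted p = 0.167). One of its clones passed in the shared component (0.40) and another in the alternating one (0.33). In the alternating component PARK7, which encodes DJ-1, passed with -0.35 (adjusted p = 0.0166). It had -0.217 and -0.284 on arrays 1 and 3 and 0.435 and 0.475 on arrays 2 and 4. A clone of TXNL1, a thioredoxin-like gene, passed in that component with the other sign (0.25, adjusted p = 0.0326).

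The single clones behind PRDX1 and PGD can be set beside genes with several. Of the 36 redox genes measured by several clones, 8 had a clone past the threshold in the shared component, and in all 8 it was 1 clone. Over the whole array 244 of 5075 genes with several clones (4.81%) had such a clone, and in 220 of the 244 it was 1 clone. The 18 other clones of these 8 genes did not pass, and 11 of them had the sign of the clone that did. Averaged over clones, 1 of the 8 passed, PTGR1, against 86 of the 244. Why clones of a gene differ was not tested.

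**Figure D4:**
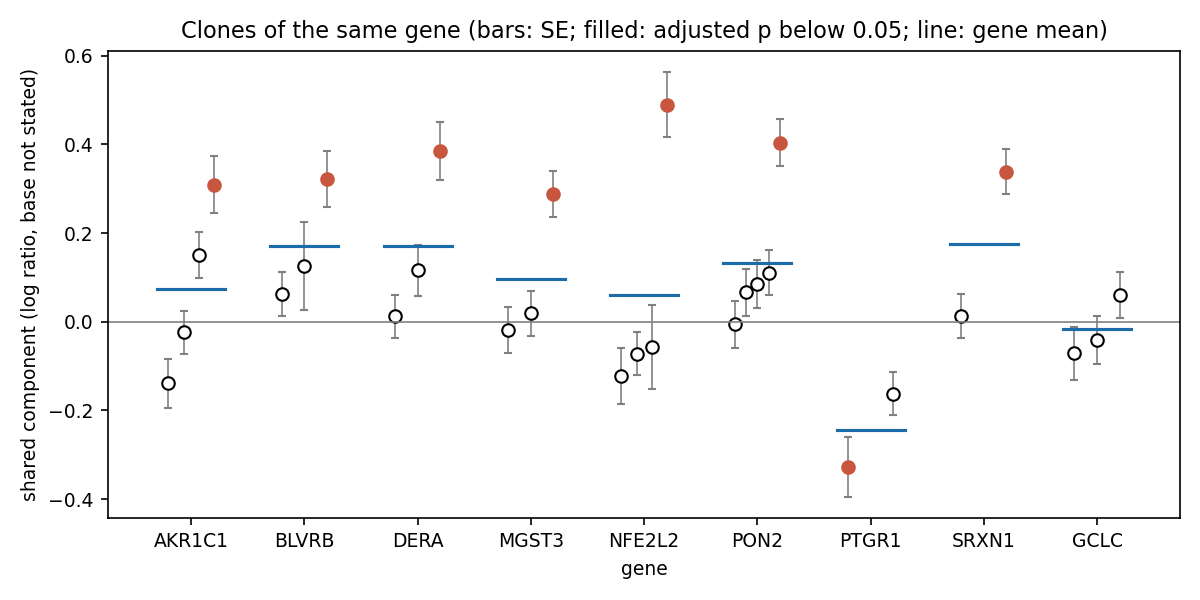
Shared component (vertical axis, log ratio of unstated base) of each clone of the 8 redox genes with a clone past the threshold, and of GCLC, whose 3 clones did not pass. Points are clones with the SE of the fit, filled where the adjusted p over all probes was below 0.05, and the blue line is the mean of the gene. In NFE2L2 and MGST3 the clone that passed stands alone, while both PTGR1 clones lie below 0.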

How the data were processed

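The series design text says that the authors read the scanner files with ArrayMagic, normalized with VSN (variance stabilization) and tested with limma. Per the labels' protocols, total RNA went through 1 round of linear amplification before labelling. The deposited values are log ratios, 1 column per array. Software versions and the handling of spots were not stated. VSN shrinks the ratios of dim spots, and with no intensities at hand dim clones could not be left out.

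The deposited values were not normalized again. Of the probes, 20976 had 1 symbol in the platform annotation, 848 several and 4805 none. Clones of a gene were averaged. The medians of the arrays lay between -0.00217 and 0.0174 and their SDs between 0.173 and 0.193. Limma 3.58.1 in R 4.3.3 was fitted to 26629 probes and to 12483 genes with a shared and an alternating coefficient (dye orientation), two-sided, with Benjamini-Hochberg adjustment at 0.05. The scripts were tested on simulated data for the shared component. Of changes of size 0.25, 88.1% were recovered by gene and 67.2% by probe, and of those of size 0.5, 100%. False calls made up 6.34% of gene calls and 8.72% of probe calls, more than the threshold of 0.05 aims at. Intervals are 95% intervals of the moderated fit, unadjusted for the number of genes. With 4 arrays their precision is limited.

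The members and lists were chosen with earlier results of these data known. Named were all measured members, list genes with a gene or clone past the threshold (at most 4 per list), and the 3 genes nearest to PRDX1 and to PGD. Further list genes were named for their role after their values were seen. Alternatives covered dropping the dye term, centring, scaling, quantile normalization, the moderation, array weights, the threshold, the choice and summary of clones, and each array left out.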

Additional observations from a re-analysis of the deposited data

Results flagged for a closer look

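Of 82 redox genes and 14 of their clones, 5 had 1 array far from the other 3, by Dixon's criterion for 4 values. Chance alone flags about 5% of such sets. The GCLC clone IMAGp998G15520 had 0.106 on array 2, against -0.095 to -0.087 on the others. PRDX3 had 0.333 on array 1, against 0.021 to 0.053. SLC7A11 had -0.069 on array 1, against 0.094 to 0.105. SOD3, the extracellular superoxide dismutase, had 0.258 on array 2, against -0.062 to -0.010. The BLVRB clone RZPDp201C1032D, which passed in the shared component, had 0.569 on array 3, against 0.213 to 0.266. No cause was tested.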

How the results depend on the processing

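PRDX1 and PGD passed in the shared component under every alternative except no moderation, where 0 of the 5 genes and 0 of the 7 clones passed. PRDX1 ranged from 0.52 to 0.58 and PGD from 0.42 to 0.48. The count over all genes in the shared component, 379 in the main setting, was 156 without the dye term, 0 without moderation, 162 and 613 at thresholds of 0.01 and 0.1, and 798, 179, 1471 and 203 without arrays 1 to 4 in turn. Over all probes (550) it was 231, 0, 248, 867 and, without arrays 1 to 4 in turn, 509, 271, 884 and 286. In the alternating component the genes (411) came to 10, 1, 7 and 1400, and 2292, 39, 1580 and 69 without arrays 1 to 4 in turn. The probes (1141) came to 102, 4, 24, 3154 and, likewise, 1874, 113, 1132 and 138. In that component 1 listed gene and 1 listed clone, PRDX1, passed after quantile normalization and at a threshold of 0.1, and 2 genes (PRDX1 and TXN) passed without array 1, against 0 without any other array. Limma without moderation had 1337 genes and 2514 probes with an unadjusted p under 0.05 in the shared component, on 2 residual degrees of freedom. Signs of values near 0 turned. In the shared component GCLC was 0.020 with the clone median and -0.061 to 0.027 with 1 array left out. In the alternating component, with 1 array left out, GCLC ran from -0.024 to 0.064, PGD from -0.062 to 0.0029 and TXN from -0.16 to 0.016. GCLM kept its sign, at -0.11 to -0.027 in the shared and 0.029 to 0.11 in the alternating component. The causes were not tested. Signal over background was not available, so dim clones could not be told from bright ones.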
